A study of Mus musculus with 12 samples.

Results

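The 10 endosomal Rab GTPase genes Rab4a, Rab4b, Rab5a, Rab5b, Rab5c, Rab7, Rab11a, Rab14, Rab21 and Rab22a were followed through mouse bone marrow-derived macrophages with and without miR-210. They were found by name among the 56941 genes of the count tables, through the Ensembl gene identifiers of the annotation, and all 10 were matched and passed the filter on low counts in every comparison. Rab4a was taken up because its level differed between the knockout (KO) and wild-type (WT) cells, and the other 9 genes were set beside it as its paralogue and its neighbours in the endosomal system. All cells came from C57BL/6J mice. The KO mice descended from floxed miR-210 mice crossed to a line with Cre driven from Gata-1, and heterozygous breeding gave KO and WT animals. WT M0 and KO M0 were macrophages grown for 7 days from magnetically isolated bone marrow monocytes in medium with L929-conditioned medium, a source of M-CSF. WT M2 and KO M2 had a further 72 h with 20 ng/mL IL-4, the cytokine that drives alternative (M2) activation, and per the study's methods the M0 control wells were otherwise kept alike but had no IL-4. Each of the 4 groups had 3 libraries, 12 in all, of ribosomal RNA-depleted total RNA sequenced as strand-specific read pairs. The labels do not say whether the 3 cultures of a group came from separate animals, so p-values measure the spread between these libraries, which may be technical.

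Rab GTPases are small membrane switches. In the GTP-bound form a Rab recruits effectors that tether, fuse, move or sort vesicles, and exchange factors (GEFs) and GTPase-activating proteins (GAPs) turn it on and off. Rab5 marks the early endosome, Rab21 and Rab22a act beside it, Rab4 serves the fast route by which internalized receptors return to the surface, Rab11a and Rab14 serve slower recycling and exchange with the Golgi, and Rab7 takes over on the late endosome, phagosome and lysosome. In macrophages this system handles engulfed particles, scavenged lipoproteins, transferrin and pattern-recognition receptors.

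A microRNA pairs with target messages mainly through its seed, the bases 2 to 8 from its 5′ end. The 2 mature strands of the deleted microRNA are shown because their seeds define the matches counted in the Rab messages. The sequences are those of RefSeq for GRCm38.p6, where miR-210-3p is at chr7:141221407-141221428 and miR-210-5p at chr7:141221445-141221466, both on the minus strand, with the seed in capitals.
miR-210-3p: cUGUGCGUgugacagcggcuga
miR-210-5p: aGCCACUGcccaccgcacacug
The reverse complement of the 3p seed, ACGCACA, was found in the 3′ untranslated region of 1 of the 10 genes, Rab22a, against 3.44% of 20674 protein-coding genes searched by 1 transcript each. In Rab22a it began at base 536 of a 6224-base 3′ untranslated region, at chr2:173543448-173543454 of GRCm39 on the plus strand. The site is shown with 10 bases on either side and the match in capitals.
Rab22a site: gtcagaacccACGCACAttagttatgg
The match to the 5p seed, CAGTGGC, was present once in the 3′ untranslated region of Rab5b and 3 times in that of Rab22a, against 13.6% of protein-coding genes with at least 1. Neither letter sequence was found in the 3′ untranslated regions of Rab4a, 611 bases, or Rab4b, 396 bases. A match of letters is a description of the transcript and not a measured site.

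Rab4a and Rab4b encode paralogues, so it matters for the counts whether a read could belong to either. Over 639 aligned coding bases the 2 genes were 75.0% identical, against 63.4% for Rab4a and Rab14 and 55.4% to 58.7% for Rab4a and each of the other 7 genes. No stretch of 50 bases in the Rab4a transcript occurred in the transcripts of another gene. The counts of Rab4b have a limit of another kind. In the annotation 64.1% of its exon bases, 1280 of 1997, were also exon bases of Gm21983, a read-through gene on the same strand that held 0 counts in every library. Of the 50-base stretches of its longest transcript, 93.0% (1231 of 1323) also occurred in transcripts of Gm21983. How reads in those bases were assigned was not tested, and the levels of Rab4b are given with that limit. Rab5b and Rab7 shared 12.1% and 13.7% of their 50-base stretches with Gm13991 and with the pseudogene Rab7-ps1, while the share was at most 2.53% for the other members apart from Rab4b.

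The libraries held 7930525 to 10167695 counts each, and the 10 most abundant genes took 4.48% to 4.84% of them. Mir210 itself (GRCm39 chr7:140801297-140801406) was at 0 in all 6 KO libraries, where a count of 0 allows up to 3 counts, and at only 1 to 5 counts in each WT library. The small RNA is barely sampled by such libraries, so this is a weak check of the genotype. The macrophage markers Adgre1, Cd68 and Csf1r had 6105 to 12358 counts in every library. The 8 macrophage markers summed to 9106 to 10376 CPM, counts scaled to a common effective library total, in M0 and 7586 to 8320 in M2. With IL-4 in WT, 5 of the 8 were called (rule given below), with Fcgr1 at −2.97, Mertk at −1.33, Cd14 at −0.51, Lyz2 at −0.38 and Itgam at 0.62 on the log2 scale. Retnla, a hallmark of IL-4 activation, had 0 counts in all 6 M0 libraries and 2161 to 4493 in the M2 libraries. The IL-4 markers Arg1, Chil3, Ccl24 and Mrc1 were also called higher with IL-4 in both genotypes. Mrc1 rose by only 0.62 in WT and 0.89 in KO on the log2 scale. Arg1 was called 0.85 higher in KO M0 than in WT M0 (SE 0.15, adjusted p = 0.0342, edgeR), but in M2 its difference of 0.04 was not called. Ly6g (neutrophil) and Cd3e (T cell) were at 0 throughout, Cd4 had 8 to 47 counts and the B cell gene Cd79b 46 to 97, and the 4 markers of dendritic cells summed to 0.31 to 0.95 CPM in M0 and 10.1 to 17.9 in M2, almost all of it Zbtb46, with 2 to 6 counts in M0 and 88 to 143 in M2. The 6 neutrophil markers summed to 0.71 to 2.54 CPM in M0, 2.48 to 4.64 in WT M2 and 1.13 to 1.88 in KO M2. Among them S100a8 had 5 to 10 counts in WT M0, 11 to 19 in KO M0, 21 to 33 in WT M2 and 9 to 17 in KO M2, and it was called higher with IL-4 in WT at a log2 fold change of 2.04 (SE 0.34). The 5 erythroid genes were at 0 in all 6 KO libraries and had a sum of 0 to 4.43 CPM in the WT libraries. The part of these markers in the results below was not tested. The labels name a separate batch for each group, and the effects of batch and group cannot be told apart.

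Rab4a, which lies at chr8:124532545-124568842 on the plus strand of GRCm39, varied most over the 4 groups among the 10 genes. Its raw counts were 124, 138 and 176 (WT M0), 26, 45 and 42 (KO M0), 298, 314 and 306 (WT M2) and 112, 151 and 139 (KO M2). Scaled with trimmed-mean (TMM) factors the WT M0 libraries had 15.8, 14.3 and 17.9 CPM and the KO M0 libraries 2.89, 4.28 and 4.18 CPM. After IL-4 the WT libraries had 35.1, 33.1 and 37.9 CPM and the KO libraries 13.7, 15.8 and 17.4 CPM. The KO libraries were below the WT libraries of the same state without overlap, and the KO M2 libraries overlapped the WT M0 libraries. The group means were 15.96 ± 1.81 CPM in WT M0, 3.79 ± 0.77 in KO M0, 35.4 ± 2.41 in WT M2 and 15.6 ± 1.85 in KO M2 (SD, n = 3 each).

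**Figure D1:**
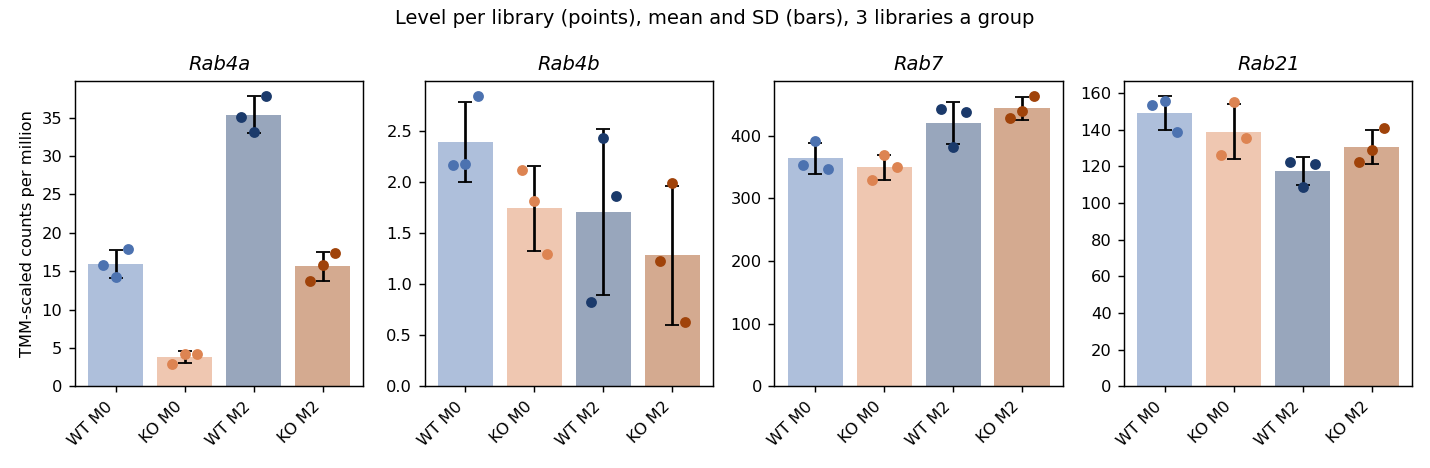
CPM (TMM-scaled) of Rab4a, Rab4b, Rab7 and Rab21 in the 4 groups, with 1 point per library, bars for the mean and whiskers for the SD of 3 libraries. Rab4a is lowest in KO M0 at a mean of 3.79, overlapping between WT M0 and KO M2 at 15.96 and 15.6, and highest in WT M2 at 35.4, while each panel has its own vertical scale.

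The first question was what IL-4 does to these genes in WT cells. Of the 10 genes, Rab4a rose and Rab14 and Rab21 fell, and the other 7 were not called. A call needed an adjusted p under 0.05 (edgeR quasi-likelihood test with Benjamini-Hochberg adjustment over all 14266 genes tested) and a change over 1.2-fold. By this rule 43% of all genes were called, 22.1% higher and 20.9% lower, so 3 of 10 members is not more than the background. The median log2 fold change was −0.03 over the members and 0.00 over all genes.

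Rab4a was 2.22-fold higher in WT M2 than in WT M0, a log2 fold change of 1.15 (SE 0.10, adjusted p = 8.02e-07), and all 3 WT M2 libraries were above all 3 WT M0 libraries. In the KO cells, where the starting level was lower, it was 4.09-fold higher in KO M2 than in KO M0. The log2 fold change was 2.03 (SE 0.18), again without overlap. The libraries of both IL-4 comparisons are also those of the KO and WT comparison by which Rab4a was chosen. A low KO M0 level was part of that choice, so the KO value is a description and not a test. Both calls remained without any 1 of the 6 libraries, with log2 fold changes between 1.07 and 1.24 in WT and between 1.88 and 2.12 in KO. In bulk RNA, fewer cells that express a gene and less of its RNA per cell cannot be told apart.

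Rab4b, the closest paralogue (chr7:26867849-26878348, minus strand), was sparse, and no change of it was called. Its raw counts were 17, 21 and 28 (WT M0), 19, 19 and 13 (KO M0), 7, 23 and 15 (WT M2) and 10, 19 and 5 (KO M2). The IL-4 change on the log2 scale was −0.47 (95% interval −1.19 to 0.24) in WT and −0.40 (−1.25 to 0.46) in KO, and neither passed the test. With so few counts the intervals still include falls of over 2-fold and rises of over 1.1-fold. The KO M0 libraries, at 1.29 to 2.12 CPM, lay just below the WT M0 libraries, at 2.16 to 2.84 CPM, while the M2 groups overlapped.

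The other recycling members were far more abundant. Rab11a, which marks the slow recycling compartment, had a mean of 208 ± 8.78 CPM in WT M0 and 197 ± 11.8 in WT M2 (SD, n = 3). Its IL-4 change was −0.07 (95% interval −0.22 to 0.07) in WT and −0.14 (−0.33 to 0.06) in KO on the log2 scale, with overlapping libraries in both genotypes. Rab14, which works between the Golgi, early endosomes and recycling vesicles, had levels of 509, 543 and 473 CPM in WT M0, which became 406, 385 and 415 in WT M2. All WT M2 libraries were lower, by a log2 fold change of −0.33 (SE 0.07, adjusted p = 0.00138, edgeR). In the KO cells Rab14 had 431, 499 and 430 CPM in M0 and 397, 395 and 441 in M2, which overlapped, and its log2 fold change of −0.14 (95% interval −0.33 to 0.04) was not called.

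Among the early endosomal genes, none of the 3 Rab5 paralogues was called with IL-4. Rab5a, which drives homotypic fusion of early endosomes, changed by 0.07 (95% interval −0.09 to 0.22) in WT and 0.04 (−0.13 to 0.20) in KO on the log2 scale. Rab5b had levels of 164, 156 and 162 CPM in WT M0, against 172, 168 and 171 in WT M2. These did not overlap, but the log2 fold change was only 0.09 (95% interval −0.04 to 0.22) and was not called. In KO cells Rab5b changed by 0.17 on the log2 scale (95% interval 0.01 to 0.33, adjusted p = 0.0874, edgeR), also without overlap and also not called. Rab5c, the most abundant of the 3 per length, changed by −0.12 (95% interval −0.26 to 0.02) in WT and −0.13 (−0.31 to 0.06) in KO. Members whose WT M2 and WT M0 libraries did not overlap were 4 of 10, Rab4a, Rab5b, Rab14 and Rab21, against 57.0% of all genes tested. In KO they were Rab4a, Rab5b and Rab7, 3 of 10 against 46.3%.

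Rab21, an early endosomal Rab linked to integrin traffic, fell with IL-4 in WT cells. It had 153, 156 and 139 CPM in WT M0, against 123, 109 and 121 in WT M2, all 3 of the latter below the former. The log2 fold change was −0.34 (SE 0.07, adjusted p = 0.00173, edgeR). In KO cells it had 126, 155 and 135 CPM in M0 and 122, 129 and 141 in M2, and the change of −0.09 (95% interval −0.29 to 0.11) was not called. Rab22a, which regulates traffic through early endosomes and is the gene with the miR-210-3p seed match shown above, had 158 to 176 CPM in WT M0 and 165 to 176 in WT M2. Its IL-4 change was 0.01 (95% interval −0.14 to 0.15) in WT and −0.05 (−0.21 to 0.10) in KO on the log2 scale.

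Rab7, the GTPase of late endosomes and phagolysosomes, rose with IL-4 in KO cells. It had 329, 369 and 351 CPM in KO M0 and 428, 439 and 464 in KO M2, with a log2 fold change of 0.34 (SE 0.08, adjusted p = 0.00308, edgeR). KO M2 was thus above KO M0 in 3 of 3 libraries. In WT cells it had 353, 391 and 346 CPM in M0 and 443, 382 and 437 in M2. WT M2 replicate 2 lay inside the WT M0 range, and the log2 fold change of 0.22 (SE 0.08, adjusted p = 0.0329, edgeR) passed the p limit but not the 1.2-fold limit. Leaving out WT M0 replicate 2 gave 0.27 and leaving out WT M2 replicate 2 gave 0.28, and Rab7 was then called. In the KO cells 2 of the 10 members, Rab4a and Rab7, were called, against 33.8% of 14331 genes, 17.4% higher and 16.4% lower, and the median log2 fold change was −0.07 over the members and −0.01 over all genes.

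**Figure D2:**
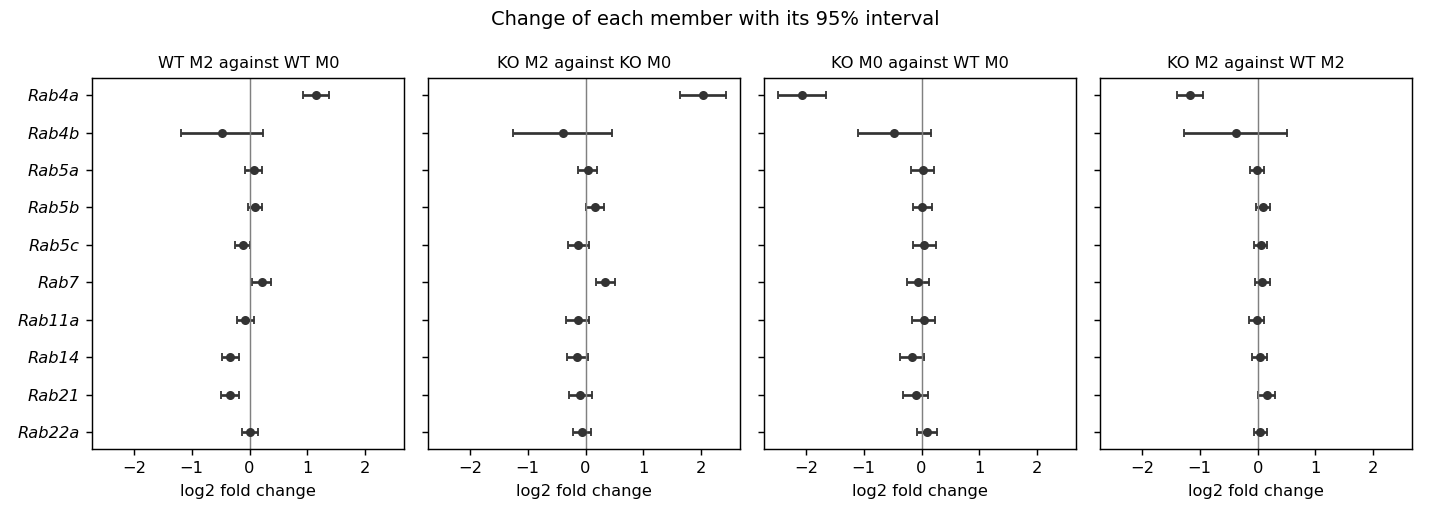
Log2 fold change of each of the 10 genes, with its 95% interval as a bar, for M2 against M0 in WT and in KO and for KO against WT in M0 and in M2. Rab4a stands away from 0 in all 4 panels, at 1.15, 2.03, −2.06 and −1.17, and the wide bars of Rab4b reflect 5 to 28 counts per library.

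Whether IL-4 acted differently in the 2 genotypes was tested as the interaction over all 12 libraries. None of the 14825 genes passed (edgeR, adjusted p under 0.05, 0% called), with 1327 genes at an unadjusted p under 0.05 and 74 of 11988 (0.617%) called by DESeq2. For the 9 members other than Rab4a the adjusted p ranged from 0.556 to 1.00 (edgeR). None was under 0.05 unadjusted, although Rab21 was at that limit with 0.05002 (edgeR). DESeq2 called none of them and gave no adjusted p for Rab4b. The falls of Rab21 and Rab14 were called in WT and not in KO, but the difference between genotypes was not: it was 0.26 for Rab21 (95% interval 0.00 to 0.51, adjusted p = 0.556, edgeR) and 0.20 for Rab14 (−0.04 to 0.43, adjusted p = 0.621, edgeR) on the log2 scale. For Rab7 it was 0.13 (−0.09 to 0.36). For Rab4a, chosen on the genotype comparisons that make up this difference, the IL-4 change was larger in KO by 0.89 ± 0.20 (SE) on the log2 scale, given here as a description.

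Between genotypes Rab4a was the member that differed, and that is how it came to be chosen. Its log2 fold change in KO against WT was −2.06 ± 0.19 (SE) in M0 and −1.17 ± 0.10 in M2, so the KO mean was 0.239 of the WT mean in M0 and 0.445 in M2. By the same rule as above 1 of 10 members was called in each state, against 0.461% of 14089 genes in M0 and 0.98% of 13980 in M2, and nothing is read from these counts. Counted from the most negative log2 fold change, Rab4a ranked 6 of 14089 genes in M0 and 30 of 13980 in M2. Leaving out any 1 library kept the value between −2.16 and −1.91 in M0 and between −1.25 and −1.09 in M2. Since Rab4a was chosen on these libraries, its rank and these ranges are descriptions and test nothing.

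None of the 9 other members was called between genotypes. Apart from the sparse Rab4b, at −0.47 (95% interval −1.11 to 0.17) in M0 and −0.38 (−1.27 to 0.51) in M2, they ranged from −0.17 (Rab14) to 0.10 (Rab22a) in M0 and from −0.02 (Rab11a) to 0.16 (Rab21) in M2. The intervals of these 8 genes reached at most from −0.37 to 0.27 in M0 and from −0.15 to 0.31 in M2. Rab22a was at 0.10 (95% interval −0.08 to 0.27) in M0 and 0.05 (−0.07 to 0.16) in M2. Rab5b was above WT in all 3 KO M2 libraries, at 174, 186 and 186 CPM against 168 to 172, a log2 fold change of 0.10. The KO and WT libraries did not overlap for Rab4a and Rab4b in M0 and for Rab4a and Rab5b in M2, 2 of 10 in each, against 14.4% and 16.04% of all genes tested.

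Levels were compared between genes per length, as TPM, the counts per kilobase of the union of the exons of a gene, scaled to the same sum in every library. With this length Rab7 was highest in every group, at 540 ± 55.0 TPM in WT M0 and 629 ± 38.8 in KO M2 (SD, n = 3), followed by Rab5c at 391 ± 9.92 and Rab11a at 279 ± 9.56 in WT M0. Rab5b (145 ± 1.39 TPM), Rab14 (136 ± 13.3), Rab21 (118 ± 9.86), Rab22a (94.1 ± 2.75) and Rab5a (83.4 ± 5.10) followed in WT M0. The libraries of Rab5b and Rab14 overlapped there, as did those of Rab14 and Rab21, and the other 7 pairs of neighbours in the order were separate. Rab4a was ninth in every group with this length, at 33.0 ± 3.19 TPM in WT M0, 7.78 ± 1.80 in KO M0, 69.8 ± 4.51 in WT M2 and 31.0 ± 4.23 in KO M2. In WT M2 it came within reach of Rab5a, at 83.0 ± 2.47 TPM, although their libraries did not overlap.

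**Figure D3:**
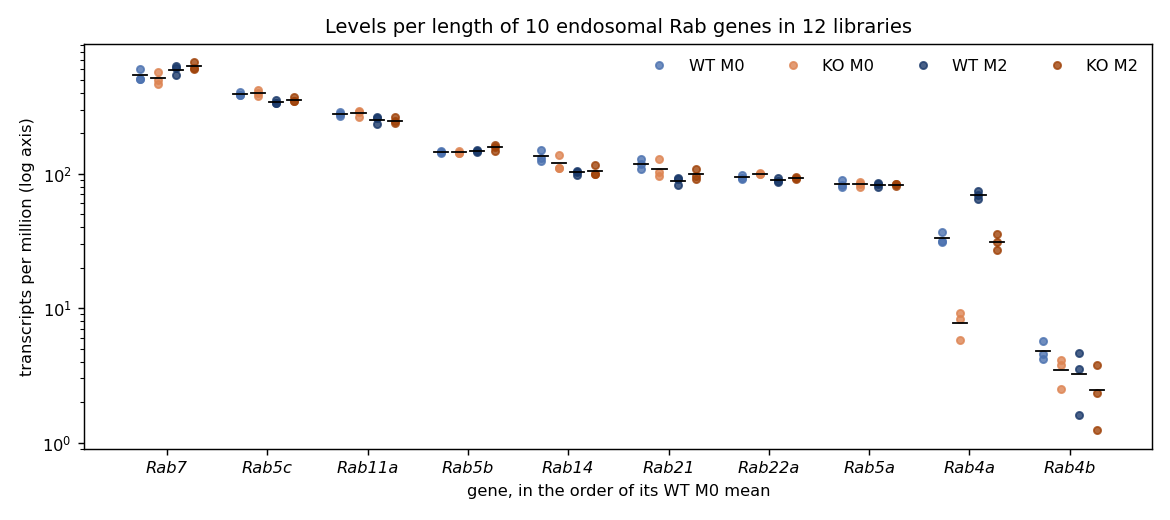
TPM of the 10 genes in each of the 12 libraries on a logarithmic axis, with points for libraries and short lines for group means, in the order of the WT M0 mean. The spread across groups is narrow for Rab7 through Rab5a, and Rab4a runs from 7.78 in KO M0 to 69.8 in WT M2.

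Rab4b was last in every group, at 4.80 ± 0.76 TPM in WT M0, 3.45 ± 0.84 in KO M0, 3.25 ± 1.54 in WT M2 and 2.44 ± 1.28 in KO M2. Rab4a thus made up 87.4% ± 0.83 of the sum of the pair in WT M0, 68.8% ± 9.38 in KO M0, 95.5% ± 2.20 in WT M2 and 92.6% ± 3.78 in KO M2 (SD, n = 3). These shares depend on the length used for each gene. When Rab4b was divided by the 717 exon bases that it does not share with Gm21983, the share of Rab4a was 71.3% in WT M0. In KO M0 it was 44.9% ± 10.5 (SD, n = 3), with libraries from 33.6% to 54.5%. The order of the paralogue means in KO M0 thus turned, but not that in every library. The place of Rab14 also rests on length, since its exon union of 15054 bases is about 3 times its longest transcript of 5003 bases. With the longest transcript Rab14 was at 324 TPM in WT M0, above Rab11a. The top of the order rests on length too. With all transcript models of the annotation Rab5c was first in WT M0, at 356 TPM against 280 for Rab7, as it was in KO M0 and WT M2, and Rab11a was sixth, at 111 TPM in WT M0.

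The other genes of the endosomal system were counted in 8 lists of 118 genes, 112 of them tested for IL-4 in WT. There 26 rose and 34 fell (53.6%, against 43% of all genes), and in KO 22 rose and 24 fell (41.1% against 33.8%). The medians of the 112 log2 fold changes were −0.04 in both genotypes, against 0.00 in WT and −0.01 in KO over all genes. Over all genes 22.1% were called higher and 20.9% lower in WT, and 17.4% higher and 16.4% lower in KO. The lists were chosen with earlier results of these data known and carry no test of their own.

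Of 18 partners of Rab4 and Rab11 tested, 7 rose and 3 fell with IL-4 in WT, and 6 rose and 1 fell in KO. The shares called were 55.6% in WT and 38.9% in KO, against 43% and 33.8% of all genes. The Rab4 effectors Rbsn (rabenosyn-5), at 0.58 in WT and 0.59 in KO, and Gripap1, at 0.79 and 0.66 on the log2 scale, were among those called in both genotypes. Rbsn, Gripap1, Rabep1, Rufy1 and Ehd1 were named after their values were seen. The largest changes in the list in WT were those of Rab11fip4 and Micall1. Rab11fip4, a Rab11 effector, rose by 2.80 (adjusted p = 4.64e-05, edgeR), from 1 to 7 counts in WT M0 to 28 to 30 in WT M2. Micall1, a tubular recycling endosome protein, rose by 0.89. Ehd1 fell and had the lowest log2 fold change in the list, −0.81 in WT and −1.25 in KO. Its levels were 194 to 263 CPM in WT M0 and 122 to 151 in WT M2. In KO they were 270 to 314 CPM in M0 and 120 to 130 in M2. Rabep1 and Rufy1, which also bind Rab4, changed by 0.19, which is under the 1.2-fold limit, and by 0.04 in WT and were not called.

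Regulators and effectors of Rab5, Rab21 and Rab22a moved both ways, with 5 higher and 8 lower of 20 in WT and 5 of each in KO. That was 65% called in WT and 50% in KO, against 43% and 33.8% of all genes. Rin3, a Rab5 exchange factor, rose by 1.5 in WT and 1.51 in KO on the log2 scale, and the adaptor Appl2 fell by 1.12 and 0.90. Of 16 regulators and effectors of Rab7, 3 rose and 7 fell in WT, 62.5% called against 43% of all genes. Rilp, which links Rab7 to dynein, rose by 1.08 in WT, and Fyco1, which links it to kinesin, fell by 1.18. None of the 8 subunits of the CORVET and HOPS tethers rose and 3 fell in WT, 37.5% called, which is below the 43% of all genes. The CORVET subunit Tgfbrap1 fell by 0.78 and Vps39 by 0.43.

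Of the 15 retromer and sorting nexin genes 3 rose and 4 fell in WT, 46.7% called against 43% of all genes. Snx5 was up by 0.87 and Snx27 down by 0.92. Of the 9 genes of Rab prenylation and the membrane cycle 2 fell in WT (22.2% called), Rabggta by 0.38 and Rab3gap2 by 0.34. Of 16 other endosomal and recycling Rabs tested 2 rose and 7 fell in WT and 0 rose and 7 fell in KO. Their shares called were 56.25% in WT and 43.75% in KO, against 43% and 33.8% of all genes. Rab39, a Rab of phagosome maturation, fell by 3.05 in WT, from 44 to 56 counts in M0 to 2 to 9 in M2, and Rab32 fell by 1.45. Of 10 endocytosed receptors that recycle 6 rose and none fell in WT, and 5 rose and none fell in KO, against 22.1% and 17.4% of all genes called higher, and like the others this list carries no test. The transferrin receptor Tfrc rose by 1.96 (SE 0.11) in WT and 1.78 (SE 0.08) in KO. Of these 10 genes 2, Mrc1 and Itgam, are also markers of IL-4 response or macrophages.

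**Figure D4:**
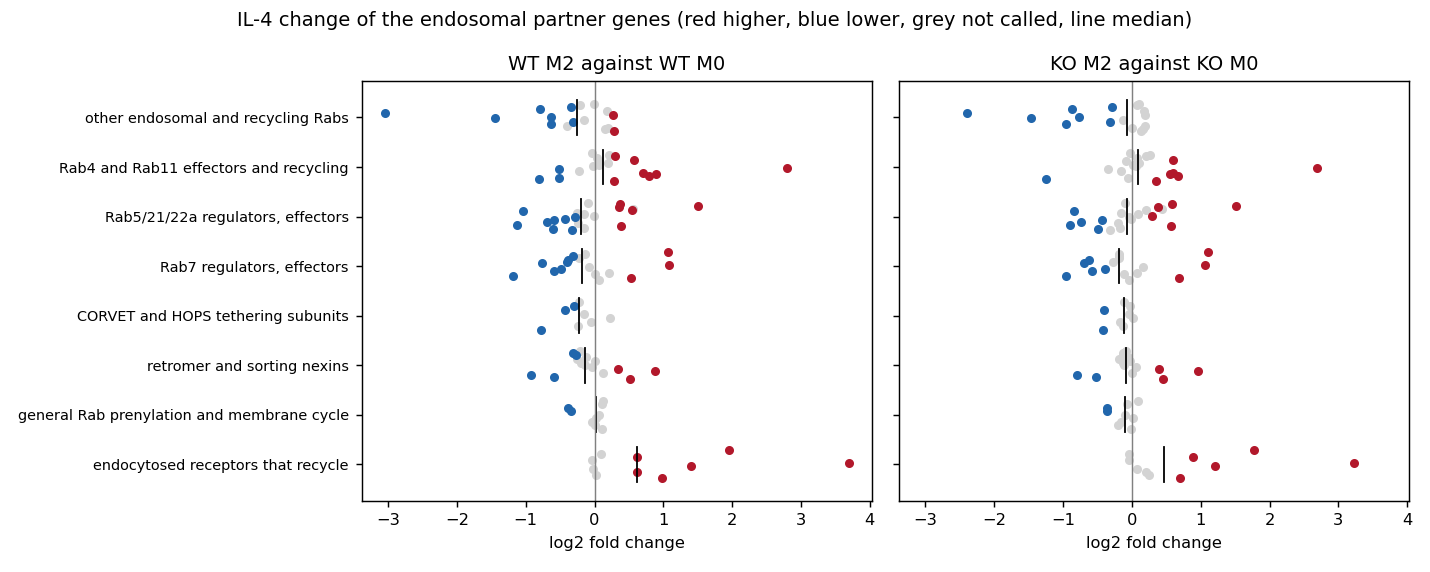
Log2 fold change with IL-4 of the genes tested in each of the 8 lists, in WT on the left and in KO on the right, where red points were called higher, blue points were called lower, grey points were not called and black lines are list medians. The recycling receptors lie on the higher side, with 6 called higher in WT and 5 in KO, and the other lists hold calls on both sides or on the lower side.

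Between genotypes 1 of the 111 genes tested in the lists was called in each state, 0.901%, against 0.461% of all genes in M0 and 0.98% in M2. It was Snx6, a sorting nexin of the retromer coat, 0.50 higher on the log2 scale in KO M0 (SE 0.08, adjusted p = 0.0249, edgeR) and 0.56 higher in KO M2 (SE 0.07, adjusted p = 0.000254, edgeR). Its raw counts were 555, 728 and 751 (WT M0), 936, 1048 and 1109 (KO M0), 772, 962 and 716 (WT M2) and 1163, 1335 and 1037 (KO M2). The call in M0 was lost without WT M0 replicate 1 or 3 or KO M0 replicate 1 or 3, where no gene of the lists was called, and the call in M2 remained without any 1 library. No gene of the lists was called for the interaction (edgeR, 16 of 112 at an unadjusted p under 0.05, 1 called by DESeq2).

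Genes whose pattern over the 12 libraries was most like that of Rab4a were sought by Pearson correlation of log2 CPM. The 5 highest were Fat3 (r = 0.963), an atypical cadherin, Camk2b (0.943), a subunit of calcium/calmodulin-dependent kinase II, Rin2 (0.941), a Rab5 exchange factor, Inpp5f (0.939), a phosphoinositide phosphatase, and Dot1l (0.929), a histone methyltransferase. The 12 libraries share the 4 groups, so these values describe group patterns. Fat3 had mean levels of 33.7 CPM in WT M0, 12.4 in KO M0, 118 in WT M2 and 49.6 in KO M2, the same order of groups as Rab4a apart from KO M2 and WT M0. Camk2b was at 6.39, 1.99, 13.0 and 5.19 CPM in these groups. Rin2 was at 306, 262, 391 and 340 CPM, and its differences between genotypes of −0.22 in M0 and −0.19 in M2 were not called. Among the members r with Rab4a ran from −0.65 (Rab5c) to 0.63 (Rab7), and it was −0.09 for Rab4b.

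The genes around Rab4a on the chromosome were looked at by the same rule. Of 84 genes annotated with a start within 500 kb of that of Rab4a 14 were tested, and none was called between KO and WT in M0, where their log2 fold changes ran from −0.55 to 0.24, or in M2, where they ran from −0.53 to 0.48. With IL-4, 5 of the 14 were called in WT and 4 in KO, against 43% and 33.8% of all genes. Ccsap, which overlaps the 3′ end of Rab4a by 1289 bases on the opposite strand, rose by 1.30 in WT and 1.13 in KO (adjusted p = 3.66e-06 and 2.56e-05, edgeR) and differed between genotypes by 0.05 in M0 and −0.11 in M2. It had 62 to 161 counts per library. The long non-coding RNA 2810455O05Rik, on the same opposite strand, rose by 0.89 in WT and 0.78 in KO. Per the study's methods reads were counted by strand, and whether any read of these genes was counted for Rab4a was not tested.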

How the data were processed

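RNA-seq was analysed in 12 libraries of 4 groups. The authors trimmed reads with Trimmomatic, removed duplicates with Picard, aligned to GRCm39 with STAR and counted read pairs per gene by strand with featureCounts. The 4 deposited tables of raw counts, 1 per pair of groups, held unnormalized counts for 56941 genes, and the 12 library columns that recur between tables were identical. The 4 deposited DESeq2-normalized tables were not used. Library columns carry a group name and a number from 1 to 3, which is not tied to the numbers of the cultures in the labels. Gene names, lengths and sequences came from GENCODE vM39 (GRCm39), without its later read-based transcript models, and 56323 of the gene identifiers matched. Library totals were 7930525 to 10167695 counts, and intervals on counts cover counting error only.

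Each comparison was fitted with edgeR 4.0.16 (TMM, filterByExpr, quasi-likelihood F-test, R 4.3.3) over all genes, with Benjamini-Hochberg adjustment. Calls required both an adjusted p under 0.05 and a change beyond 1.2-fold, the interaction having no limit on the fold. DESeq2 1.42.0, other scalings, filters, lengths and leaving out each library were tried as alternatives. The scripts were tested on simulated data, where 70% of 200 changed genes were recovered for the interaction and 92.5% for IL-4 in WT. The members and lists were chosen with earlier results of these data known. KO against WT values of the members and the IL-4 change of Rab4a in KO are descriptions. Named genes are the members, Mir210, in each list those called between genotypes and the 2 with the largest called IL-4 change in WT, the 5 most like Rab4a, tested genes within 500 kb of it, and macrophage and IL-4 markers. Rbsn, Gripap1, Rabep1, Rufy1, Ehd1 and the markers of other cell types lie outside it and were named after their values were seen. A gene that this rule names is not reported here.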

Additional observations from a re-analysis of the deposited data

How the results depend on the processing

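The labels give the groups no shared replicate numbers, but the count columns are numbered 1 to 3 in each group. Libraries with the same column number had deviations from their group means that correlated between −0.26 and 0.36 over the 12 pairs of the 4 comparisons, and in 1 of the 12 the best match was the own number, so these numbers were not taken to pair the samples. A fit with the column number as a replicate block, added after seeing the data, left the members called at 3 for IL-4 in WT, 2 in KO, 0 for the interaction and 1 between genotypes in each state, while calls over all genes between KO and WT became 284 in M0 and 289 in M2. Of the log2 fold changes of the 10 genes under the alternatives, 730 kept their call or moved by less than the spread between libraries, 5 became calls, 1 moved without a call, and none lost its call or turned. The calls gained were Rab7 with IL-4 in WT without WT M0 replicate 2, without WT M2 replicate 2 or with no limit on the fold, and Rab4a for the interaction. With the DESeq2 Wald test the number of members called for the interaction went from 0 to 1, Rab4a. The same held with no filter on low counts, where 341 genes in all were called. The number stayed at 0 when any 1 library was left out, although the calls over all genes then ran from 0 to 77. Rab4a was chosen on the genotype comparisons that make up the interaction, so its calls there are a description and not a test. Calls over all genes between KO and WT depended on the setting. In M0 they went from 65 to 210 with DESeq2, 248 with the fit of all 12 libraries and 532 with no filter, and to between 20 (without WT M0 replicate 3) and 302 (without WT M0 replicate 2). In M2 they went from 137 to 60 with all 12 libraries and 360 with no filter, and to between 53 (without KO M2 replicate 2) and 215 (without KO M2 replicate 3).

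The share of Rab4a in Rab4a plus Rab4b moved with the gene length, which enters the share directly. In WT M0 it was 85.2% with the longest transcript and 83.6% with the main transcript. With the unshared exon bases it was 71.3% in WT M0, 44.9% in KO M0, 88.6% in WT M2 and 82.1% in KO M2. With all transcript models of the annotation, which lengthen Rab4a from 1936 to 5759 bases, it was 69.9%, 43.4%, 87.9% and 81.2% in the same order. The lengths other than the longest transcript were chosen after seeing the data. Low counts, 5 to 28 per library, limit Rab4b far more than the other 9 genes. Whether depth or the exon bases shared with Gm21983 account for these low counts was not tested.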
